A study of Homo sapiens with 18 samples.

Results

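CEACAM1, CEACAM5, CEACAM6, CEACAM7 and CEACAM19, 5 of the 61541 Ensembl genes in the count tables, were followed in A549 cells kept in sodium propionate (SP), a short-chain fatty acid salt. They were picked by symbol as the family members to describe, with the responses of these cells known, so their own fold changes are given as descriptions without a test. A549 is an established human lung adenocarcinoma line, a non-small cell lung cancer (NSCLC) model, labelled wild type here, and each of the 18 RNA-seq libraries came from it. The control cells of 3 days (3 libraries), SP 3 days (3) and SP 12 days (3) form one count table. The control cells of 24 h (3), SP 3 h (3) and SP 24 h (3) form the other. SP was used at 5 mM throughout and the controls were untreated. No control was collected at 3 h or 12 days among these libraries, so in those comparisons the time in culture and SP cannot be told apart. The study asked how propionate acts on epithelial and mesenchymal states of lung cancer cells, and adhesion molecules are part of that question.

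The CEACAM family consists of immunoglobulin-like cell surface proteins that bind one another between neighbouring cells. CEACAM5, the carcinoembryonic antigen used as a tumour marker, CEACAM6 and CEACAM7 are held in the membrane by a glycosylphosphatidylinositol (GPI) anchor and carry no cytoplasmic tail. CEACAM1 spans the membrane, and its long splice form carries tyrosine-based inhibitory motifs that recruit phosphatases. CEACAM19 also spans the membrane and is one of the less studied relatives. In normal tissue CEACAM5 and CEACAM7 are best known from the gut epithelium, while CEACAM6 is also made by lung epithelium and granulocytes.

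All 5 genes lie on the long arm of chromosome 19 (GRCh38, GENCODE 44). CEACAM7 (ENSG00000007306, 41673303 to 41706976, minus strand), CEACAM5 (ENSG00000105388, 41708585 to 41730433, plus strand) and CEACAM6 (ENSG00000086548, 41750977 to 41772211, plus strand) are immediate neighbours, with 1.6 kb between the first pair and 20.5 kb between CEACAM5 and CEACAM6. CEACAM1 (ENSG00000079385, 42507304 to 42561234, minus strand) follows 735.1 kb further on. CEACAM19 (ENSG00000186567, 44662278 to 44684359, plus strand) lies 2101 kb beyond CEACAM1. A small part of their exons is shared with other genes: 185 bp of CEACAM1 with the opposite-strand LIPE-AS1, 139 bp of CEACAM5 and 138 bp of CEACAM6 with the read-through gene ENSG00000267881, and 121 bp of CEACAM19 with PVR. The read-through gene held 0 reads in the 18 libraries. Of all 100-base windows of the annotated transcripts, 1.79% in CEACAM6, 1.48% in CEACAM5, 0.469% in CEACAM1, 0.4003% in CEACAM19 and 0 in CEACAM7 also occur in another gene, so most of each transcript is unique to its gene.

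The promoters of the 4 members in the RefSeq table (GRCh38.p14, from 250 bases before to 50 bases after the start) are shown because CEACAM5 and CEACAM6 moved together at 12 days while CEACAM7, next to them, stayed near 0 reads. Capitals mark matches, on either strand, to the GC box, E-box, TATA box or CCAAT box, whose letters are spelled out after the sequences.
CEACAM5: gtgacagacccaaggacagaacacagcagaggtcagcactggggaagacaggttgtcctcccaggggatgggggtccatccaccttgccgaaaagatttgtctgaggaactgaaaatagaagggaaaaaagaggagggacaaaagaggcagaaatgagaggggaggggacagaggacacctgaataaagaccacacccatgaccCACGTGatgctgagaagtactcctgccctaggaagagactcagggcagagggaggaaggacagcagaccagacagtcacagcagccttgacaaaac
CEACAM6: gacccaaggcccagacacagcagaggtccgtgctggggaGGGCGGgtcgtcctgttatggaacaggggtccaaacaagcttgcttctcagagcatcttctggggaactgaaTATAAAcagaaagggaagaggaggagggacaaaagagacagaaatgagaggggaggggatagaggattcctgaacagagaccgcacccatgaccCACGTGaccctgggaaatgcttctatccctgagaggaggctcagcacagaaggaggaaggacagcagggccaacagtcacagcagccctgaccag
CEACAM7: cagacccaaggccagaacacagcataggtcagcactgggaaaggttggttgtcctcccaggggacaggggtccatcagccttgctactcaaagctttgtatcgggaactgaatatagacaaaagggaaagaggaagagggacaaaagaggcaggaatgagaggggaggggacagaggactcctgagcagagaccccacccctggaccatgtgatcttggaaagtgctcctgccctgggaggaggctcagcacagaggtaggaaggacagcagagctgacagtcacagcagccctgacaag
CEACAM1: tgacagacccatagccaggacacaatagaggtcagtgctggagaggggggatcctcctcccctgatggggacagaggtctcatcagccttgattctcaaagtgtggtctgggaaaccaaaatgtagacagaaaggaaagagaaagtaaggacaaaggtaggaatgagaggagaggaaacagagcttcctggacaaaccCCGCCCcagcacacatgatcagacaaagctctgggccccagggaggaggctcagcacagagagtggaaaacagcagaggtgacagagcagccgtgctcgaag
They were read at chr19:41708376-41708675 (plus strand, CEACAM5), chr19:41755280-41755579 (plus strand, CEACAM6), chr19:41688221-41688520 (minus strand, CEACAM7) and chr19:42528432-42528731 (minus strand, CEACAM1). The windows of CEACAM6, CEACAM7 and CEACAM1 lie inside the GENCODE spans given above. The gaps between gene ends are therefore not distances between these RefSeq start sites. CEACAM5 and CEACAM6 hold the E-box CACGTG, a palindrome, at almost the same place, beginning 46 and 45 bases before the start site. Those letters occur in 7.26% of the 35114 promoters of this length, and neither CEACAM1 nor CEACAM7 holds them. Other forms of the E-box were not searched. CEACAM6 also holds the GC box GGGCGG, found in 45.0% of promoters, 211 bases before the start. In CEACAM1 the GC box lies on the opposite strand, 52 bases before the start. The TATA box TATAAA, present in 11.5% of promoters, occurs in CEACAM6 alone among the windows, 139 bases before the start. The CCAAT box, written as its name reads and found in 34.6% of promoters, is in none of the windows. CEACAM7 holds no match to any of the 4 motifs as spelled here. No match overlaps another. The alignments gave 81.4% identical positions between CEACAM7 and CEACAM5, 80.5% between CEACAM7 and CEACAM6 and 74.7% between CEACAM5 and CEACAM6. CEACAM1 was more distant, at 65.6% to CEACAM5, 68.2% to CEACAM6 and 71.2% to CEACAM7. The windows are poor in CpG, with 2 in CEACAM5, 5 in CEACAM6, 1 in CEACAM7 and 3 in CEACAM1, against a median of 14 over all promoters. These matches describe the letters in the windows and say nothing on binding.

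Between 14187401 and 43765330 reads were counted per library. Levels below are CPM, the reads of a gene scaled to the TMM-corrected depth of its library. A gene was called at a Benjamini-Hochberg adjusted p under 0.0001 (edgeR) with at least a 2-fold change, the thresholds of the study. CEACAM1, CEACAM5, CEACAM6 and CEACAM19 passed the expression filter in both tables, and CEACAM7 passed it in neither. Within SP 12 days, replicate 3 stood apart: its counts differed from those of replicates 1 and 2 by 19.3 and 31.2 times the sampling variance per degree of freedom (chi-square over genes), against 3.01 between replicates 1 and 2. The replicates of the 24 h table were looser than those of the 3 days table, with a biological coefficient of variation of 0.199 against 0.0996. The study's text calls the 3 h and 24 h libraries biological replicates, while the labels name no separate cultures, so for the 3 and 12 days libraries the p-values measure a spread that may be technical. In bulk RNA, a change in the share of cells that make a transcript and a change in transcript per cell cannot be told apart.

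CEACAM5 and CEACAM6, the GPI-anchored neighbours, were high after 12 days of SP and near control after 3 days. CEACAM5 stood at 3.30, 3.20 and 4.14 CPM in the control libraries of 3 days and at 4.51, 4.08 and 5.26 CPM in SP 3 days. At SP 12 days its 3 libraries read 60.4, 68.9 and 95.2 CPM. Each SP 12 days library lay far above every control and SP 3 days library, while SP 3 days and control overlapped. The log2 fold change against control was 4.403 ± 0.18 (SE) at 12 days, 21.2-fold, and 0.39 ± 0.22 at 3 days. Between SP 12 days and SP 3 days it was 4.02 ± 0.18, or 16.2-fold. CEACAM5 ranked 2 of 17775 tested genes by that last change, and 109 by the change from control to 12 days.

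CEACAM6, the most abundant family member in A549, was already well expressed in untreated cells. The control libraries of 3 days held 331, 304 and 363 CPM and those of SP 3 days 326, 364 and 395 CPM. After 12 days the values were 1194, 1232 and 1242 CPM, a narrow range (1223 ± 25.5, SD, n = 3). The 12 days libraries did not overlap with either other group, whereas SP 3 days and control did. Its log2 fold change was 1.88 ± 0.09 against control (3.67-fold), 1.76 ± 0.09 against SP 3 days (3.38-fold) and 0.12 ± 0.09 for SP 3 days against control. It ranked 54 of 17775 in the change from 3 to 12 days.

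CEACAM5 and CEACAM6 were 2 of the 27 genes called higher in SP 12 days than in SP 3 days (0.152% of tested genes called higher and 0.0281% lower, with every library above in 13.9%). Against control, both were called at 12 days, where 6.88% of tested genes were called higher and 2.23% lower and 28.7% had every SP library above control. No member was called at 3 days, where 6.58% of tested genes were called higher and 1.86% lower. As the members were picked with these contrasts in view, nothing is read from the counts.

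**Figure D1:**
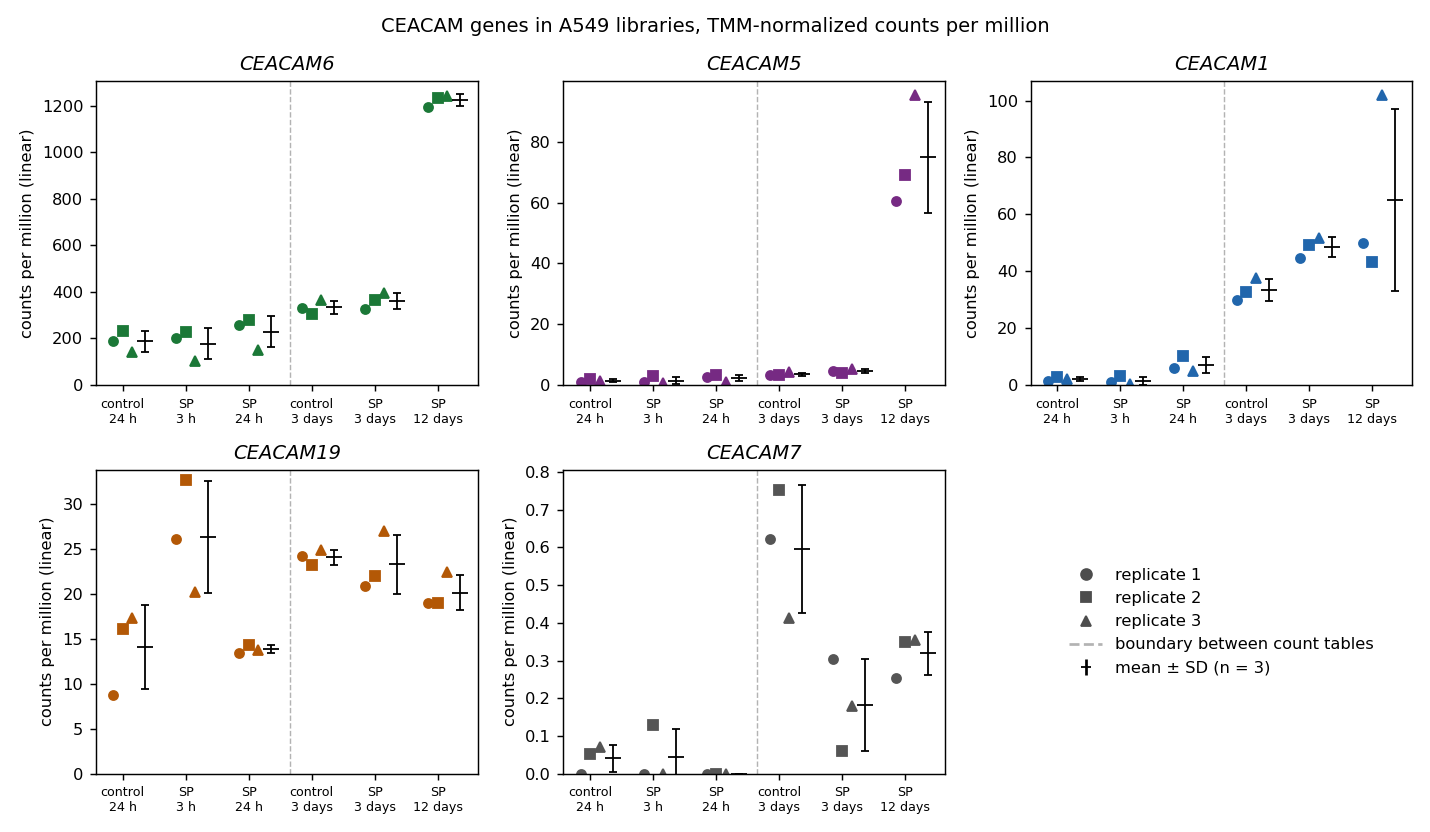
TMM-normalized CPM (linear y axes, each panel with its own range) of each gene in the 6 groups on the x axis; points are single libraries shaped by replicate number, black bars the mean ± SD (n = 3), and the dashed line separates the count tables. CEACAM5 and CEACAM6 rise at SP 12 days, to 74.8 ± 18.2 and 1223 ± 25.5 CPM, and CEACAM1 has 1 SP 12 days library far above the other 2.

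CEACAM1, the inhibitory transmembrane member, was a little higher with SP at 3 days and variable at 12 days. Its control libraries held 29.8, 32.7 and 37.6 CPM and its SP 3 days libraries 44.8, 49.1 and 51.7 CPM. All SP 3 days libraries were above all controls, which held for 30.5% of tested genes in that comparison. The SP 12 days libraries read 50.1, 43.2 and 101.8 CPM, and the last, replicate 3, is the library that stood apart. The log2 fold changes were 0.54 ± 0.31 (SE) at 3 days and 0.97 ± 0.31 at 12 days, neither called. Without SP 12 days replicate 3 the 12 days value was 0.47, and the difference from SP 3 days went from 0.43 ± 0.31 to -0.073. The size of the CEACAM1 difference at 12 days thus rested on 1 library, while the order against control did not.

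At the early times CEACAM1 was the member that differed most between SP 24 h and control. It held 1.27, 2.80 and 2.21 CPM in the 24 h controls, 0.988, 3.02 and 0.489 CPM in SP 3 h, and 5.99, 10.1 and 5.00 CPM in SP 24 h. Every SP 24 h library was above every control and every SP 3 h library, an order shared with 24.6% and 23.3% of tested genes. The log2 fold change was 1.75 ± 0.55 against control, 3.37-fold, and 2.16 ± 0.57 against SP 3 h. SP 3 h itself overlapped with control at -0.41 ± 0.60. These levels rest on few reads, 12 to 93 per library in SP 3 h and 24 to 63 in control. Leaving out SP 3 h replicate 2 moved the 3 h value to -1.59 and the difference between 24 h and 3 h to 3.34.

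In SP 24 h, no member was called by edgeR, where 0.622% of tested genes were called higher and 0.0633% lower. At 3 h no gene at all was called by edgeR (0% called), with 4367 at an unadjusted p under 0.05 and 415 called by DESeq2. Between SP 24 h and SP 3 h, 0.0288% of genes were called, none of them a member. Same-numbered libraries of SP 24 h and control 24 h deviated together, with correlations of 0.170 to 0.504. With the replicate number as a block, the 24 h comparison called 2 genes in place of 119 in the fit of 9 libraries. In the fit of 6 libraries the block went the other way, with 186 called in place of 4. No member was among these calls, and CEACAM1 stayed at 1.70 in both fits with the block.

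The libraries of CEACAM5 and CEACAM6 overlapped between SP and control at the early times. CEACAM5 held 0.953, 2.06 and 1.40 CPM in the 24 h control, 0.847, 2.92 and 0.693 CPM in SP 3 h, and 2.55, 3.16 and 1.08 CPM in SP 24 h. The ranges of the 3 groups overlapped, and the values rest on few reads, 18 to 40 per library in control, 12 to 90 in SP 3 h and 32 to 141 in SP 24 h. Its log2 fold changes were 0.10 ± 0.60 (SE) at 3 h and 0.64 ± 0.58 at 24 h, and leaving out SP 3 h replicate 2 moved the 3 h value to -0.95 and that of 24 h against 3 h from 0.54 to 1.58. CEACAM6 held 189, 233 and 144 CPM in control, 201, 228 and 105.1 CPM in SP 3 h, and 258, 277 and 152 CPM in SP 24 h. These groups overlapped too, with log2 fold changes of -0.08 ± 0.32 at 3 h and 0.28 ± 0.32 at 24 h. Between same-numbered libraries of SP 24 h and control 24 h, CEACAM6 was higher with SP in 3 of 3 pairs and CEACAM5 in 2 of 3. With the replicate number as a block the 24 h values were 0.26 for CEACAM6 and 0.53 for CEACAM5.

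CEACAM19 was highest at SP 3 h. It held 8.79, 16.2 and 17.4 CPM in the 24 h control, 26.1, 32.7 and 20.3 CPM in SP 3 h and 13.5, 14.4 and 13.7 CPM in SP 24 h. All SP 3 h libraries were above all controls (15.6% of tested genes) and above all SP 24 h libraries, an order against SP 24 h shared with 21.6% of tested genes. The log2 fold change was 0.90 ± 0.25 (SE) at 3 h and -0.03 ± 0.25 at 24 h, and -0.93 ± 0.25 for SP 24 h against SP 3 h. In the later table the control libraries read 24.2, 23.2 and 24.9 CPM, those of SP 3 days 20.9, 22.0 and 27.0 CPM, and those of SP 12 days 19.03, 19.1 and 22.4 CPM. The SP 12 days libraries were all below the controls, as were those of 27.3% of tested genes, with a log2 fold change of -0.25 ± 0.11, and SP 3 days overlapped with control at -0.05 ± 0.11. No CEACAM19 difference was called. After removal of the trends with GC content and length, its values were -0.25 at 3 days and -0.37 at 12 days.

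CEACAM7, the other GPI-anchored neighbour, was close to the limit of detection. Its libraries held 13, 12 and 7 reads in the 3 days control, 5, 1 and 3 reads in SP 3 days and 4, 7 and 8 reads in SP 12 days. On the CPM scale the SP libraries of both times were below all controls, as were those of 30.7% of tested genes at 3 days, a share that CEACAM7 itself, untested, is not part of. The summed reads of SP 3 days (9) against control (32) gave a depth-scaled ratio of 0.305 (95% counting interval 0.128 to 0.655), and those of SP 12 days (19) 0.547 (0.293 to 0.994). Between SP 12 days and SP 3 days the ratio was 1.79 (0.772 to 4.49), and the upper end lay below the 16.2-fold of CEACAM5. In the 24 h table it held 3 reads in control, 4 in SP 3 h and 0 in SP 24 h. The intervals cover counting error only.

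**Figure D2:**
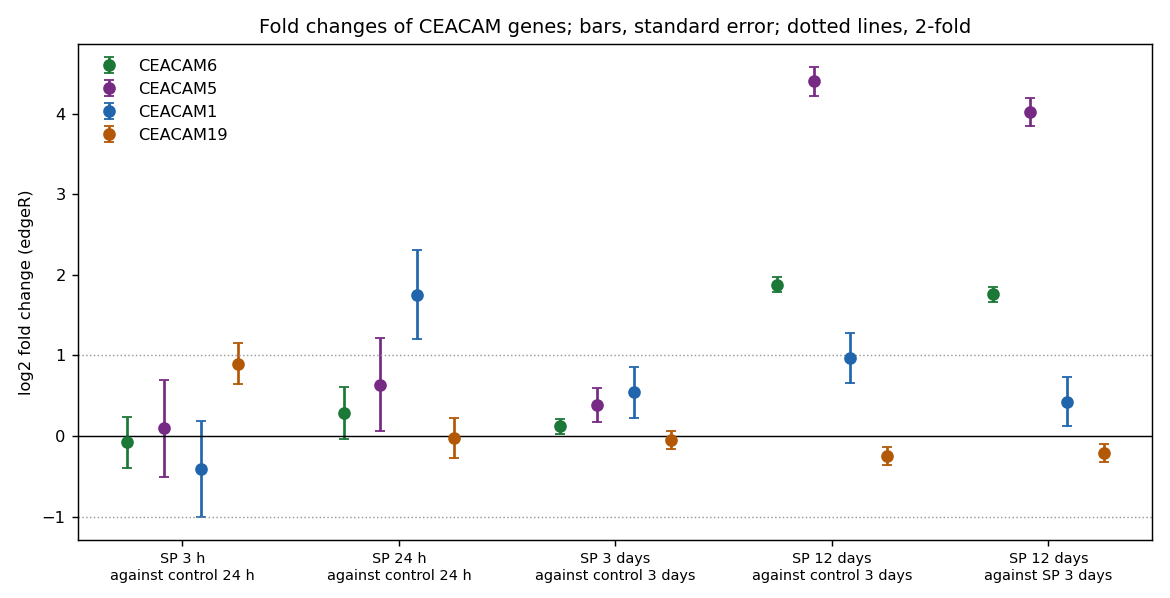
Log2 fold change (y axis, edgeR) of CEACAM6, CEACAM5, CEACAM1 and CEACAM19 in 5 comparisons (x axis); points are the estimates, bars the SE, and dotted lines mark 2-fold in either direction. CEACAM5 lies at 4.403 and 4.02 and CEACAM6 at 1.88 and 1.76 in the 2 comparisons with SP 12 days.

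Per kb of exon, the order of the members could be compared. The length was the union of exons over all annotated transcripts, 5527 bp from 15 transcripts for CEACAM1 and 2956 bp from 2 for CEACAM6. Orders between genes of close levels thus depend on the annotation. CEACAM6 was highest in each of the 6 groups, from 60.3 ± 21.9 CPM per kb (SD, n = 3) in SP 3 h to 414 ± 8.62 in SP 12 days. Second in the 3 days control was CEACAM1 at 6.04 ± 0.715, followed by CEACAM19 at 4.66 ± 0.159 and CEACAM5 at 0.889 ± 0.130. At SP 12 days CEACAM5, at 18.8 ± 4.56, was second, followed by CEACAM1 at 11.8 ± 5.79. The ranges of these 2 genes overlapped across libraries, but within each SP 12 days library CEACAM5 was higher, at 15.1, 17.3 and 23.9 against 9.06, 7.82 and 18.4 CPM per kb for CEACAM1. CEACAM19 followed at 3.90 ± 0.377. In the 24 h control the order below CEACAM6 was CEACAM19 at 2.73 ± 0.897, then CEACAM1 at 0.379 ± 0.140 and CEACAM5 at 0.369 ± 0.140, which did not differ beyond their spread. CEACAM7 was lowest in each group. For 100 CEACAM6 units per kb, CEACAM5 made 0.739 to 0.844 in the 3 days control libraries, 0.833 to 1.03 in SP 3 days and 3.75 to 5.69 in SP 12 days, so CEACAM5 changed more than CEACAM6.

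The untreated cells of the 2 tables are side by side only, since the tables were made separately and differ in days in culture. CEACAM1 held 33.4 CPM on average in the 3 days control and 2.09 in the 24 h control, a ratio of 15.96. Only 0.228% of 16652 genes had a ratio as large, and the median gene had 1.11. The ratios were 2.41 for CEACAM5, 1.77 for CEACAM6 and 1.71 for CEACAM19. Time in culture and the table cannot be told apart, so no test was run.

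Deviations from the group means were compared between members, library by library. In the 3 days table, replicate 3 was the highest library in all 3 groups for CEACAM1, CEACAM5, CEACAM6 and CEACAM19, as it was for 9.41% of tested genes. In the 24 h table, replicate 2 was highest in all 3 groups for CEACAM1, CEACAM5 and CEACAM6, as for 7.14% of tested genes. After subtracting group means, the correlation of CEACAM1 and CEACAM5 over the 9 libraries of a table was 0.805 in the 3 days table and 0.917 in the 24 h table. That of CEACAM5 and CEACAM6 was 0.550 and 0.758, that of CEACAM1 and CEACAM6 0.2905 and 0.719, and that of CEACAM6 and CEACAM19 0.727 and 0.317. The pairs of CEACAM19 with CEACAM1 and CEACAM5 lay between 0.634 and 0.782. These points share libraries, depth and few reads, and the values are descriptions.

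**Figure D3:**
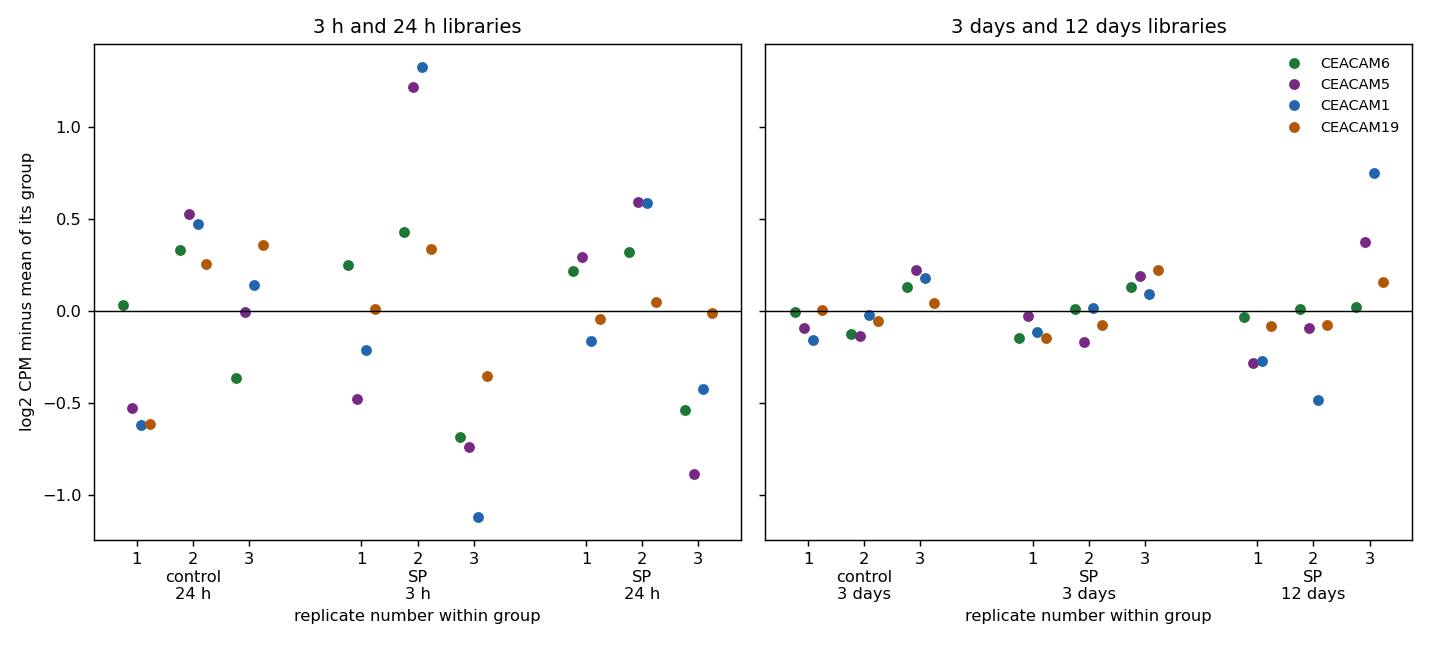
Log2 CPM minus its group mean (y axis) for CEACAM6, CEACAM5, CEACAM1 and CEACAM19 by replicate number within each group (x axis), with the 24 h table on the left and the 3 days table on the right. Points are single libraries, and replicate 2 of SP 3 h and replicate 3 of SP 12 days are high for CEACAM1 and CEACAM5.

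Over the 9 libraries of the 3 days table, the gene whose level was most like that of CEACAM5 among 11700 compared was CEACAM6 (Pearson r = 0.995), followed by SPP1 (0.979), which encodes the secreted phosphoprotein osteopontin, and ARSJ (0.978). For CEACAM6 the next were FHL2 (0.981) and SPP1 (0.973). In the 24 h table the same pairs gave 0.796 for CEACAM5 with CEACAM6, -0.21 for SPP1 and -0.43 for ARSJ with CEACAM5, and -0.77 for FHL2 with CEACAM6. Of these pairs, that of CEACAM5 and CEACAM6 alone had an r above 0 in both tables. Both genes were picked with their rise at SP 12 days known, so these values are descriptions. After subtracting group means, the r of this pair was 0.550 in the 3 days table and 0.758 in the 24 h table. CEACAM1 was most like SLC9A3-AS1 (0.983), SUSD1 (0.965) and COL4A5 (0.962) there and SCD (0.989), ADRA1D (0.987) and CTSD (0.968) in the 24 h table. CEACAM19 was most like CLCN6 (0.973), POLR3GL (0.962) and ENSG00000271254 (0.943) in the 3 days table and SMARCA2 (0.972), HCN3 (0.967) and FHIP1B (0.966) in the other. In the 24 h table CEACAM5 was nearest to TMEM9B-AS1 (0.927), MARVELD2 (0.926) and OLFM1 (0.906), and CEACAM6 to RNF43 (0.890), SPRY1 (0.870) and PTPRG (0.858).

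Of 18 other CEACAM and PSG genes, the pregnancy-specific glycoproteins of the same locus, few were expressed. In the 3 days table CEACAM16 and PSG4 were tested. PSG4 was higher with SP, from 0.170 ± 0.0232 CPM (SD, n = 3) in control to 2.14 ± 0.480 in SP 3 days and 2.14 ± 0.484 in SP 12 days. Its log2 fold changes were 3.62 ± 0.38 (SE) at 3 days and 3.62 ± 0.38 at 12 days. Between 12 and 3 days the value was 0.0037 ± 0.25. The PSG4 count was low, with 9 reads in control against 106 and 126. PSG4 passed the expression filter through the SP libraries, where it was high, and was named after its values were seen. Its fold changes are therefore descriptions without a test. CEACAM16, which neighbours CEACAM19, had 0.16 ± 0.38 at 12 days (adjusted p = 0.748, edgeR). In the 24 h table PSG4 and PSG5 passed the expression filter, and the PSG4 log2 fold change at 24 h was 1.08 ± 0.23, also a description. The granulocyte members were near 0, with 4 and 14 reads in SP 12 days for CEACAM8 and CEACAM3.

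The next tested genes on either side of CEACAM5 and CEACAM6 had small differences between the 2 SP times. DMAC2 is the nearest tested gene on the CEACAM7 side, at 232.6 kb, and RPS19 the nearest on the CEACAM6 side, at 88.0 kb. Between SP 12 days and SP 3 days DMAC2 changed by -0.29 ± 0.11 (adjusted p = 0.114, edgeR) and RPS19 by 0.16 ± 0.09 (adjusted p = 0.303, edgeR). Against control at 12 days, DMAC2 fell by 0.58 ± 0.11 (adjusted p = 3.38e-04, edgeR), and RPS19 had 0.17 ± 0.09 (adjusted p = 0.108, edgeR). LIPE, 79.9 kb from CEACAM1, had -0.17 ± 0.14 (adjusted p = 0.332, edgeR). PVR, which overlaps CEACAM19, had 0.03 ± 0.10 (adjusted p = 0.801, edgeR).

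Within 500 kb of a member, 58 of 83 protein-coding genes were tested in the 3 days table. Of these, 17 rose and 17 fell at 12 days (adjusted p under 0.05, as did 26.4% and 23.4% of all tested genes), with a median log2 fold change of -0.04 against -0.0037 over all genes. At 3 days 19 rose and 12 fell (25.2% and 23.3% of all genes), and between 12 and 3 days 1 rose (RELB, 0.87 ± 0.11) and 2 fell (4.46% and 3.65% of all genes). Among the largest rises was APOE, an apolipoprotein gene 221.4 kb from CEACAM19, from 12.5 ± 1.09 CPM (SD, n = 3) in control to 63.3 ± 8.47 at 3 days and 91.2 ± 22.8 at 12 days (2.86 ± 0.17 SE, adjusted p = 7.34e-08, edgeR). BCAM, a laminin-binding adhesion protein, rose by 1.69 ± 0.25 at 3 days and 1.25 ± 0.25 at 12 days (adjusted p = 0.00309, edgeR). EXOSC5, a subunit of the RNA exosome, fell by 0.94 ± 0.09 at 12 days (adjusted p = 2.48e-07, edgeR). These genes also passed the test at 3 days, at adjusted p = 4.71e-07 for APOE, 6.24e-04 for BCAM and 3.42e-06 for EXOSC5 (edgeR). At 24 h, 12 of 56 rose and 5 fell (16.8% and 12% of all genes), APOE by 3.04 ± 0.26 (adjusted p = 9.66e-05, edgeR).

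The GPI anchor genes are needed to attach CEACAM5, CEACAM6 and CEACAM7 to the membrane. Of 27 tested, 7 rose and 7 fell at 3 days, where 25.2% of all tested genes rose and 23.3% fell, and 5 rose and 9 fell at 12 days, where 26.4% and 23.4% did. The medians were -0.15 and -0.13 against -0.024 and -0.0037 over all genes. PIGH, of the first enzyme of the pathway, rose by 0.63 ± 0.10 at 12 days (adjusted p = 5.11e-05, edgeR), and PIGQ, of the same enzyme, by 0.53 ± 0.09. PIGW, an inositol acyltransferase, fell by 0.84 ± 0.15 (adjusted p = 3.04e-04, edgeR), PIGO by 0.74 ± 0.09 and PGAP3 by 0.72 ± 0.14. The transamidase gene GPAA1 rose by 0.63 ± 0.08 at 3 days (adjusted p = 1.60e-05, edgeR). Between SP 12 days and SP 3 days, when CEACAM5 and CEACAM6 rose, 0 of the 27 rose and PIGS alone fell, by 0.54 ± 0.11 (adjusted p = 0.00592, edgeR). At 3 h 2 fell (PIGW and PIGC; 7.39% of all genes rose and 4.11% fell there), and at 24 h 4 rose and 4 fell (16.8% and 12% of all genes).

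Of 25 tested binding and signalling partners, 14 rose and 4 fell at 3 days and 14 rose and 4 fell at 12 days, beside 25.2% and 23.3% of all tested genes at 3 days and 26.4% and 23.4% at 12 days. The medians were 0.28 and 0.26 against -0.024 and -0.0037 over all genes. LGALS3, a galectin that binds glycosylated CEACAM proteins, rose from 63.2 ± 1.62 CPM (SD, n = 3) to 115 ± 7.04 at 3 days and 154 ± 10.5 at 12 days (1.28 ± 0.08 SE, adjusted p = 4.25e-09, edgeR). It was also higher at 12 than at 3 days, by 0.42 ± 0.08 (adjusted p = 0.00408, edgeR), as was TNFRSF10B, a death receptor, by 0.46 ± 0.10 (adjusted p = 0.00817, edgeR). The integrin genes ITGA5 and ITGAV rose by 0.95 ± 0.08 and 0.57 ± 0.10 at 12 days. SRC, a kinase, fell by 0.72 ± 0.08 (adjusted p = 2.88e-06, edgeR). PTPN6, the phosphatase SHP-1 that CEACAM1 recruits, fell by 0.58 ± 0.10 (adjusted p = 1.89e-04, edgeR). At 24 h 3 of 24 rose and 1 fell, among them ITGA5 by 1.63 ± 0.23 (adjusted p = 9.91e-04, edgeR).

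The transcription and splicing factor list, which holds the E-box binders USF1 and USF2, had 4 rises and 7 falls among 14 at 12 days (26.4% and 23.4% of all tested genes) and 4 and 6 at 3 days (25.2% and 23.3%). SOX9 rose by 0.70 ± 0.11 at 12 days (adjusted p = 5.10e-05, edgeR). SP1, the GC box binder, fell by 0.59 ± 0.07 (adjusted p = 8.88e-06, edgeR). HNRNPL and HNRNPA1, splicing factors, fell by 0.64 ± 0.11 and 0.44 ± 0.08. Between 12 and 3 days 1 of the 14 fell (HNRNPA1, by 0.29 ± 0.08; adjusted p = 0.0325, edgeR) and none rose. At 3 h 4 fell, SP1 by 0.45 ± 0.10 and USF1 by 0.43 ± 0.09 among them, and at 24 h 1 rose and 3 fell.

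The cell line label was checked on markers. The epithelial keratins and CDH1 were abundant, with a summed level of 5999 to 7731 CPM in the 3 days controls, 11670 to 12545 in SP 3 days and 11013 to 15351 in SP 12 days, and all 5 rose at both times. The alveolar type II markers were near 0, with a sum of 0.765 to 1.00 CPM in the 3 days controls, 2.50 to 3.54 in SP 3 days and 1.26 to 2.61 in SP 12 days. At the early times they summed to 0.140 to 0.423 CPM in control, 0.494 to 0.746 in SP 3 h and 1.01 to 1.22 in SP 24 h, and in neither table did the SP sums overlap those of control. Of the 2 tested at 3 and 12 days, NKX2-1, a lung lineage transcription factor, had log2 fold changes of 5.32 ± 0.71 (SE) at 3 days and 4.18 ± 0.81 at 12 days. NKX2-1 rests on few reads, 136 in the 9 libraries of the 3 days table. It passed the expression filter through the SP libraries, where it was high, so its fold changes are descriptions. The other tested marker did not pass in either direction, and the median of the 2 was 2.32 at 3 days and 1.97 at 12 days. Leukocyte markers reached at most 6.01 CPM in sum, with 5 PTPRC reads, 1 MPO read and 0 CD3E reads in the 3 days table. ITGAM made up most of that list, with 426 reads in the 3 days table and 984 in the 24 h table. ELANE followed in the 3 days table with 70 reads and LYZ with 38. The 4 intestinal epithelial markers summed to between 77.0 and 80.1 CPM in the 3 days controls and between 37.0 and 61.0 in SP 12 days. CDH17 made up most of that sum, with 10289 reads in the 3 days table against 357 of CDX2, 296 of VIL1 and 0 of CDX1. Of the 3 tested, 1 rose and 1 fell at 12 days against control. The fibroblast list summed to between 14.04 and 14.97 CPM in control, 58.4 and 69.4 in SP 3 days and 29.99 and 55.3 in SP 12 days. COL1A1 made up most of it, with 5998 of its reads in the 3 days table against 0 of COL1A2. The part of these lists in the CEACAM levels was not tested.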

How the data were processed

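Total RNA of A549 cells was sequenced in 18 libraries (6 groups of 3, grouped by the labels). Per the labels, reads were aligned to GRCh38 with STAR 2.7.9a and counted with featureCounts. The deposited tables hold raw counts per Ensembl gene, which the authors did not normalize. Strandedness and the treatment of multi-mapping reads are not given in the sources used here. The columns were matched to samples by name.

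The analysis ran in R 4.3.3 and used edgeR 4.0.16 (robust quasi-likelihood, TMM factors 0.957 to 1.04, filterByExpr minimum count 10, 17775 and 17377 genes tested), with all 9 libraries of a table in one fit. Adjusted p-values follow Benjamini and Hochberg, over every gene tested in a comparison. DESeq2 1.42.0 was an alternative. The procedure was tested on simulated data. The typical (median) standard error on the log2 scale was 0.13 at 3 days and 0.201 at 24 h. The lists passed at an adjusted p under 0.05. The members and lists were chosen with earlier results of these data known. Named list genes are up to 3 per direction with the largest change. They had an adjusted p under 0.05, a mean count of at least 100 and no overlap of libraries. PSG4, outside that rule, was named after its values were seen. The marker NKX2-1, with 136 reads in the 3 days table, is also outside that rule. 1 neighbouring gene is not reported here. By residual correlation, same-numbered libraries went together only between control 24 h and SP 24 h (0.170 to 0.504). SP 24 h replicate 2 correlated at 0.175 with control replicate 3 and at 0.170 with control replicate 2. The main fits held no pairing. The 24 h standard errors, adjusted p-values and counts are therefore unpaired, except where a replicate block is named. Identities are from global alignment of RefSeq promoters.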

Additional observations from a re-analysis of the deposited data

Results flagged for a closer look

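Differences between SP 12 days and SP 3 days were flagged for CEACAM5 and CEACAM6, since their difference from the shared 3 days control was not the same in the 2 groups. With no 12 days control, time in culture and SP cannot be told apart here. CEACAM5 changed by 4.02 and CEACAM6 by 1.76 on the log2 scale. These values were used to pick the genes, so no test is given, and both comparisons share the 3 days control libraries.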

How the results depend on the processing

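With the adjusted p threshold relaxed to 0.05 and the fold threshold kept, 2683 genes were called at 3 days, 2837 at 12 days, 252 between 12 and 3 days, 803 at 3 h, 2089 at 24 h and 1312 between 24 and 3 h. DESeq2 gave 95 between 12 and 3 days, 415 at 3 h, 1192 at 24 h and 656 between 24 and 3 h, and no filter on low counts gave 167, 408, 1131 and 602. Removal of GC content and length trends gave 85 at 3 h, 435 at 24 h and 101 between 24 and 3 h, moved the share of calls that are higher from 77.9% to 60.3% at 3 days and from 75.5% to 62.8% at 12 days, and moved CEACAM19 to -0.25 at 3 days and -0.37 at 12 days. A fit of the 2 groups compared gave 5 between 12 and 3 days, 4 at 24 h and 2 between 24 and 3 h. With the replicate number as a block, 15 were called between 12 and 3 days, 2 at 24 h and 1 between 24 and 3 h, and in the 2 groups alone with the replicate block 930 at 12 days, 1 between 12 and 3 days, 186 at 24 h and 0 between 24 and 3 h. Between 12 and 3 days CEACAM5 was called in 18 of 18 settings and CEACAM6 in 17 of 18. All settings drew on the same libraries, and both genes were picked with this contrast known, so these counts are descriptions. The CEACAM6 call was lost in the 2 groups alone with the replicate block. The cause of these shifts was not tested.

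Leaving out 1 library at a time gave 6 to 300 genes between 12 and 3 days, 1 to 87 at 24 h and 1 to 12 between 24 and 3 h. The 300 came without SP 12 days replicate 3. CEACAM1 ranged from 0.47 to 1.18 at 12 days, from -0.073 to 0.64 between 12 and 3 days, from -1.59 to 0.025 at 3 h and from 1.72 to 3.34 between 24 and 3 h. CEACAM5 ranged from -0.95 to 0.46 at 3 h and from 0.17 to 1.58 between 24 and 3 h, and CEACAM19 from -0.36 to -0.23 at 12 days. Replicate numbers did not pair the libraries of SP 3 h or of the 3 and 12 days groups. CEACAM1, CEACAM5 and CEACAM7 in the 24 h table rest on few reads, which limits what can be seen there.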
